A study of Mus musculus with 2 samples.

Results

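Crypt-type immature goblet cells were taken from the small intestinal epithelium of 1 mouse by their RNA, and 382 of 9872 kept cells met the rule (3.87%, exact 95% interval 3.50 to 4.27%). A cell was a member when the summed unique molecular identifiers (UMIs, each standing for 1 captured RNA molecule) of 6 genes, Kcnma1, Slc12a8, Pdia5, Cracr2a, Bace2 and Car8, came to at least 5. The summed UMIs of 7 genes that mark goblet cells of the villus, Hs3st5, Fer1l6, Ido1, Pkhd1, Rhobtb1, Sytl2 and Clca1, had to stay under 6. The Paneth granule genes Lyz1, Itln1, Mptx2, Ang4, Defa21, Defa22 and Defa29 had to stay under 4% of nuclear UMIs, the UMIs of genes encoded outside mitochondrial DNA (mtDNA). Of the 12363 barcodes in the matrix, those under 500 UMIs, under 300 detected genes or under 1000 open chromatin counts were dropped. The panel genes therefore chose the cells, and their values below describe the rule and support nothing.

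Goblet cells arise in the crypt when a progenitor with low Notch activity expresses the transcription factor Atoh1 and enters the secretory lineage. They build up the machinery of the endoplasmic reticulum that folds and links the giant mucin Muc2, fill granules with mucus and move up the villus as they mature. Notch ligands on secretory precursors hold neighbouring cells in the absorptive lineage, and the factor Spdef promotes the maturation of goblet and Paneth cells.

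The animal was 55 weeks old and carried a mutation in TrnA, the mtDNA gene for alanine tRNA, at a load of 73%. Villi and crypts were dissociated together, stained for CD45, CD31, TER-119 and CD326 and sorted, with gates that the sources used here do not state, so shares of cells are shares of a sorted suspension. The cells were fixed with formaldehyde, and 2 libraries, RNA and ATAC (which reads open chromatin), came from the same cells with a 10x Multiome protocol adapted to retain mtDNA. The series concerns mtDNA mutation in the epithelium during acute colitis, but the labels do not say whether this animal had colitis, and no animal without the mutation was analysed here, so no value measures an effect of the mutation.

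Members were set beside 3 other groups of the same animal. These were 1143 villus-type goblet cells (villus panel at least 6 UMIs, Paneth genes under 4%), 215 Paneth-type cells (Paneth genes at least 4%) and 652 progenitor-type cells (in none of the other groups, at least 5 UMIs of Lgr5, Smoc2, Ascl2, Axin2, Rgmb and Cdk6, crypt panel under 2). The rule sends a cell with both panels to the villus-type group, and 638 of those 1143 cells also had at least 5 UMIs of the crypt panel. Median depth was 2895 nuclear UMIs and 11741 fragments in peaks per member, against 2705 and 9583 in villus-type, 2877 and 4477 in Paneth-type and 3303.5 and 12909 in progenitor-type cells. Cells of 1 animal are not replicates, so no test was made. Each ratio has an exact 95% interval that covers counting error only. Genes called measured had at least 20 UMIs over both groups. A gene was counted as higher or lower when it differed at least 2-fold and its interval excluded no change. RNA levels are UMIs per 1000000 nuclear UMIs (CPM), chromatin levels are fragments per 1000000 fragments in peaks (FPM), and ratios are log2 of members over the other group.

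Most members carried goblet RNA, but some carried that of another secretory lineage. Of the 382 cells, 315 (82.5%) had at least 5 UMIs of the goblet genes Muc2, Fcgbp, Agr2, Spdef, Atoh1 and Ern2, and 11 had none. Another 38 cells (9.95%, 7.14 to 13.4%) had at least 5 UMIs of 18 enteroendocrine markers, with up to 413 UMIs of the incretin hormone gene Gip in a single cell. Against this, 19 of 1143 villus-type cells (1.66%) and 0 of 215 Paneth-type cells (0 to 1.70%) reached that count. Tuft markers reached 5 UMIs in 6 members. Of Paneth-type cells, 131 of 215 (60.9%) also passed the goblet gene count, so it does not set goblet from Paneth-type cells. The label goes against the RNA of the enteroendocrine-marked members, so the main results they could touch are also given for the 338 cells without either mark. Paneth granule genes made up 1 to 4% of nuclear UMIs in 22 members, enterocyte markers exceeded 1% in 47 members (12.3%, against 21.3% of villus-type cells), and at least 10 UMIs of 32 genes of G2 and mitosis were found in 106 members (27.7%). Markers of lymphocytes reached 5 UMIs in 2 members. Of the 382 members, 43 (11.3%) lay in the highest 8% of doublet scores over all kept cells, against 17.6% of villus-type cells.

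**Figure D1:**
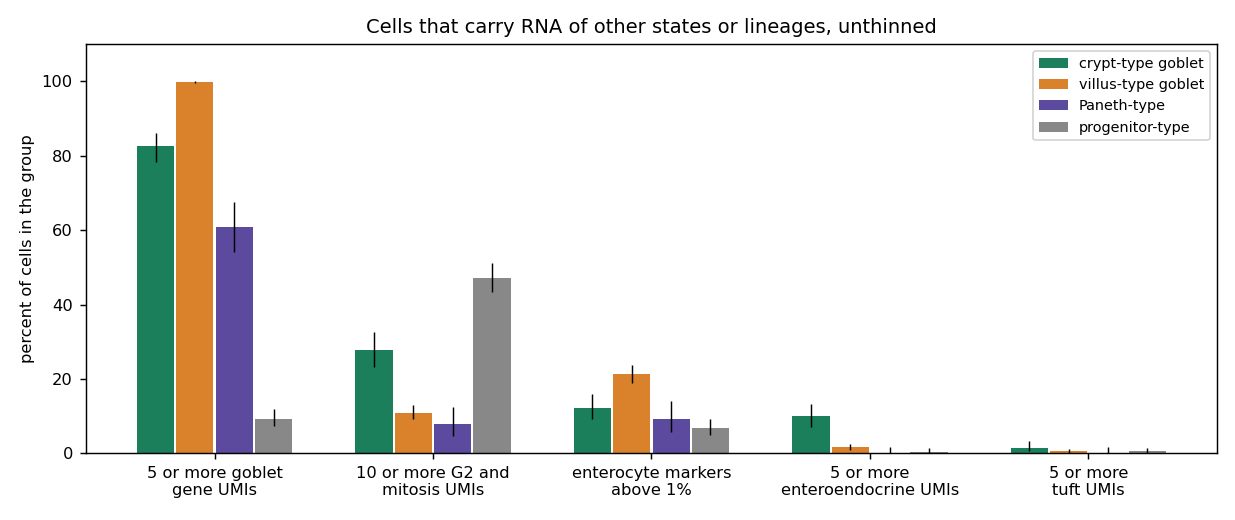
Percent of the cells in each of the 4 groups (y axis, bars with exact 95% intervals, cells not thinned) that carried RNA of the state or lineage named on the x axis. Enteroendocrine RNA marked 9.95% of crypt-type goblet cells against 1.66% of villus-type ones, and G2 and mitosis RNA marked 27.7% against 10.9%.

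Slc12a8, a member of the cation-chloride cotransporter family, was the largest single contributor to the panel sum, with 1239 of 2927 CPM. It was detected in 92.1% of members, Kcnma1 in 66.0%, Car8 in 64.9%, Cracr2a in 62.3%, Pdia5 in 47.6% and Bace2 in 28.3%. The median member had 9 panel UMIs (quartiles 6 and 13, range 5 to 36). Of the 6 genes, 12 cells held 1, 51 held 2, 117 held 3, 110 held 4, 77 held 5 and 15 held all 6. Within the 338 unmarked members the 6 genes were only weakly related, with rank correlations from -0.03 (Pdia5 and Cracr2a) to 0.25 (Kcnma1 and Cracr2a). These cells share 1 library and their number of UMIs varies, so the correlations are a description.

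The panel genes differed in how far they separated the members from their neighbours. Kcnma1, the pore of the large-conductance calcium-activated potassium channel, stood at 458 CPM in crypt-type goblet cells, 154 in villus-type goblet cells, 467 in Paneth-type cells and 0 in progenitor-type cells. Its level was thus high in the members and in Paneth-type cells. It was at least 389-fold lower in progenitor-type cells than in members, taking 3 UMIs as the floor of the progenitor-type group. Progenitor-type cells had to hold under 2 UMIs of the crypt panel and members at least 5. The rules thus set low progenitor-type levels of the panel genes, so this bound describes the rules and is no measure of separation. In cells thinned to 1000 nuclear UMIs, 37.8% of members (32.9 to 43.0%) and 35.1% of Paneth-type cells (28.4 to 42.2%) had a Kcnma1 UMI, against 11.1% of villus-type cells (9.28 to 13.1%). Slc12a8 did not separate the goblet groups: its level was 1239 in members and 1246 in villus-type cells, a log2 ratio of -0.01 (-0.09 to 0.07), against 409.8 in Paneth-type and 42 in progenitor-type cells. Pdia5, a protein disulfide isomerase, stood at 207, 108, 89.1 and 11.8 in the same order of groups. Cracr2a, a calcium sensor of store-operated calcium entry, stood at 398, 283, 371 and 10.2, so it was shared with Paneth-type cells. Car8, a carbonic anhydrase relative that lacks enzyme activity, stood at 504, 211, 216 and 31, with 419 in the 338 unmarked members and 1246 in the 38 enteroendocrine-marked ones. Bace2, an aspartyl protease, stood at 120.2, 174, 39.9 and 0.785, higher in the villus-type cells than in the members.

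The villus panel was low in the members by construction, but unevenly. Sytl2, an effector of the granule GTPase Rab27, kept 279 CPM in members against 1522 in villus-type cells. Fer1l6, of the ferlin membrane fusion family, kept 128 against 1697. Clca1, a secreted metalloprotease that processes mucus, kept 108 against 3168, and Ido1, which degrades tryptophan, 10.9 against 375. Hs3st5, a heparan sulfate sulfotransferase, had 0 UMIs in all 382 members and 1214 in villus-type cells, at least 133-fold lower. The thresholds passed through graded values. Cells with a crypt panel sum of 4 (68 cells, outside) and of 5 (58 cells, inside) had 1540.0 and 1704 Fcgbp CPM, and cells with a villus panel sum of 5 (37 cells, inside) and 6 (43 cells, outside) had 6246 and 6441. Cells with a Paneth share of 2 to 4% (8 cells, inside) and 4 to 6% (19 cells, outside) had 1353 and 1406 CPM of the Paneth protease gene Mmp7.

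**Figure D2:**
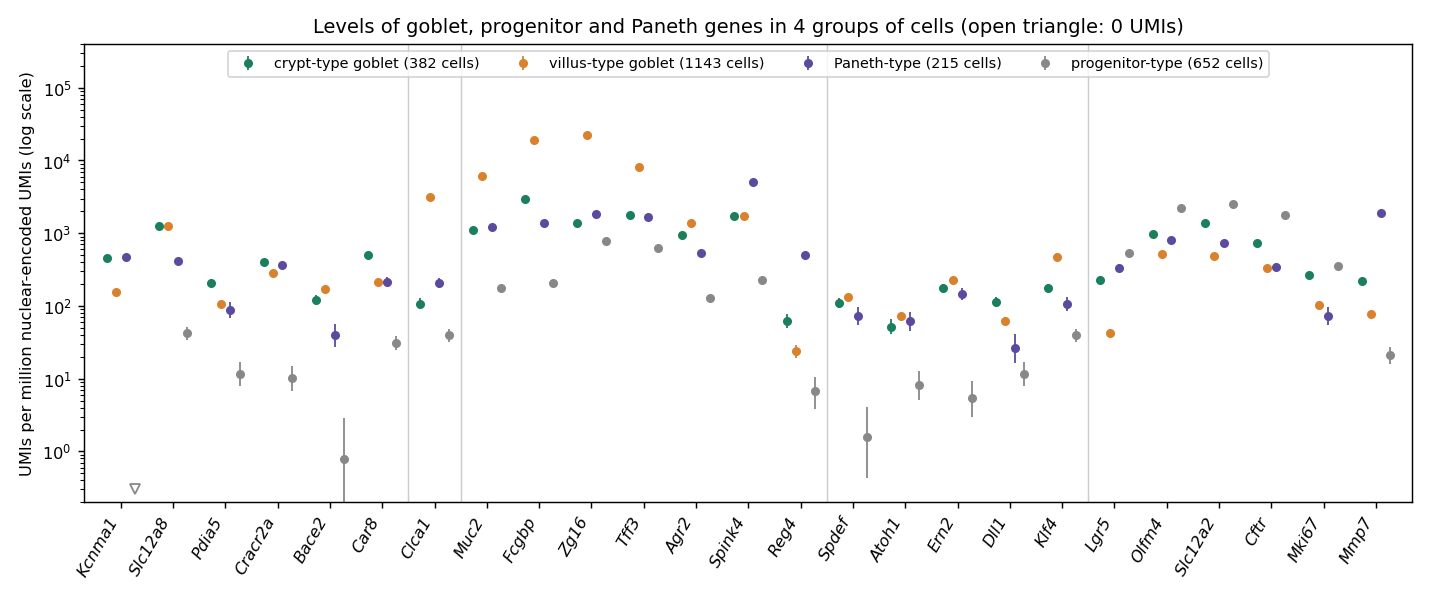
Level of each gene (y axis, CPM, log scale, exact 95% counting intervals) in crypt-type goblet, villus-type goblet, Paneth-type and progenitor-type cells. The open triangle marks 0 Kcnma1 UMIs in the 652 progenitor-type cells, and Fcgbp and Muc2 lie between the progenitor-type and villus-type points in crypt-type goblet cells.

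Some mucus genes, among them Muc2 and Fcgbp, stood in the members at a level between those of progenitor-type and villus-type goblet cells. Against villus-type cells, 2 of 15 measured mucus genes were higher and 6 lower (median log2 -0.94), beside 12% of all 11703 genes higher and 5.03% lower and a median gene at 0.21. Fcgbp, a large protein bound to the Muc2 network, stood at 2954 CPM in crypt-type goblet cells, 18890.3 in villus-type goblet cells, 1377 in Paneth-type cells and 207 in progenitor-type cells. Muc2 itself stood at 1123, 6157, 1227 and 176 in the same order. The log2 ratio of Muc2 was -2.46 (-2.53 to -2.38) against villus-type and 2.67 (2.52 to 2.83) against progenitor-type cells, and that of Fcgbp -2.68 (-2.72 to -2.63) and 3.84 (3.71 to 3.97). The 4881 remaining kept cells without any goblet panel UMI, which should hold little goblet RNA of their own, still had 417 Muc2 and 495 Fcgbp CPM, with a median of 894 nuclear UMIs per cell. These cells are shallower than the members, and progenitor-type cells held less of both RNAs, so they are given as a reference and set no floor.

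Of the other secreted goblet proteins, levels relative to those reference cells differed. Zg16, a lectin of the mucus layer, stood at 1386, 22734, 1851 and 791, and its 1386 in the members lay below the 2207 of the reference cells and above the 791 of progenitor-type cells. The trefoil peptide gene Tff3 stood at 1787 in members, 1640.1 in the reference cells, 619.7 in progenitor-type cells and 8174 in villus-type cells. Agr2, the disulfide isomerase that Muc2 assembly requires, stood at 954, 1368, 534 and 127 against 315 in the reference cells, so the members held most of the villus-type level, with a log2 ratio of -0.52 (-0.61 to -0.43). Spink4, a small secreted peptide of goblet and Paneth cells, was level between both goblet groups at 1699 and 1730.3, with a log2 ratio of -0.03 (-0.09 to 0.04). Reg4, a secreted lectin, was 1.41 (0.98 to 1.84) higher on the log2 scale than in villus-type cells and -2.99 (-3.35 to -2.65) relative to Paneth-type cells. The protease Klk1 at -1.18 (-1.60 to -0.78) and the serine protease Tpsg1 at -1.61 (-2.11 to -1.15) were lower than in villus-type cells.

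The open chromatin, of which the rule used only the minimum of peak counts per cell, separated the mucus genes in another way. Over all 78334 peaks with at least 50 fragments in members and villus-type cells, 5.32% were at least 2-fold higher and 8.7% lower in members. The peak at the Muc2 start (chr7:141689730-141690597, mm10) held 193, 626, 55 and 48 fragments in members, villus-type, Paneth-type and progenitor-type cells, or 33, 39.3, 32.4 and 4.74 FPM. Its log2 ratio was -0.25 (-0.49 to -0.02) against villus-type and 2.80 (2.34 to 3.29) against progenitor-type cells, while the RNA ratio was -2.46 and 2.67. The peak at the Fcgbp start (chr7:28070594-28071506) held 46.2, 54.8, 39.5 and 29.6 FPM in the same order, a log2 ratio of -0.25 (-0.45 to -0.05) against villus-type cells where the RNA ratio was -2.68. The peak at the Agr2 start (chr12:35992324-35993173) held 18, 18.2, 10 and 6.91 FPM and was level between the goblet groups at -0.02 (-0.35 to 0.31). At Zg16 (chr7:127052290-127053150, 313 bases from the start) the peak was lower with the RNA: 11, 225, 5 and 3 fragments, or 1.88, 14.1, 2.95 and 0.296 FPM, and -2.91 (-3.93 to -2.04) against villus-type cells. The Tff3 start (chr17:31129220-31130081) lay between, at -0.72 (-1.07 to -0.38) against villus-type and 1.46 (0.96 to 1.97) against progenitor-type cells.

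The 250 bases before the RefSeq start of Muc2, Fcgbp and Agr2 are shown because their start peaks lay close to the villus-type level in the members while Muc2 and Fcgbp RNA was several-fold lower. They come from RefSeq's GRCm38.p6 table, the assembly that mm10 names, and run 5′ to 3′ on the gene's strand. Capitals mark CAGNTG, the E-box letters bound by Atoh1-type factors, and CAGGAT or its reverse complement ATCCTG, an ETS-type core like that of Spdef, on both strands.
Muc2 promoter, chr7:141690090-141690339, plus strand: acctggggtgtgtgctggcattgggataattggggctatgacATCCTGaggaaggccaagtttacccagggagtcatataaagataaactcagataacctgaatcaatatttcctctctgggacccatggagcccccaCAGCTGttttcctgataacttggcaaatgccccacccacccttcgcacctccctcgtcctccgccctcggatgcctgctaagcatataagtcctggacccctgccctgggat
Fcgbp promoter, chr7:28070986-28071235, plus strand: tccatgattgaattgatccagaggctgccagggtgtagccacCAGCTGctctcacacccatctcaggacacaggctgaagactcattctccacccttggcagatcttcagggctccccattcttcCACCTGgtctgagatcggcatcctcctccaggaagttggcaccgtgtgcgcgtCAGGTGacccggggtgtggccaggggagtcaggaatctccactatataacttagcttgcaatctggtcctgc
Agr2 promoter, chr12:35992675-35992924, plus strand: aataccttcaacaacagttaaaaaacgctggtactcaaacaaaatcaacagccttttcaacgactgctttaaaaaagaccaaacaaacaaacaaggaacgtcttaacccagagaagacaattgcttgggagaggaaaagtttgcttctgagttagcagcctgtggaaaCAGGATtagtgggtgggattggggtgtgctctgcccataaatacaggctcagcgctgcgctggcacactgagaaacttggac
The Fcgbp window held 3 E-box matches, the Muc2 window 1 E-box and 1 ETS-type match, and the Agr2 window 1 ETS-type match. Of 32851 RefSeq promoter windows of the same length, 44.8% held the E-box letters and 13.6% the ETS-type letters, so matches are common and describe sequence only.

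Genes that fold and export secreted proteins were about level between the members and villus-type cells. Against villus-type cells, 1 of 33 genes of endoplasmic reticulum folding and the unfolded protein response was higher (Ero1lb, an oxidase of disulfide formation, 1.10 (0.59 to 1.61), or 0.62 in the unmarked members) and none lower, with a median of 0.10 that turned to -0.11 when ratios were centred on the median gene. The summed level of all 34 listed folding genes was 6539, 6865, 5441 and 2727 CPM in members, villus-type, Paneth-type and progenitor-type cells. Unlike the counts, this sum leaves out no gene of the rule. Of 46 genes of export to the Golgi, 0 were higher and 1 lower (Kdelr3, a receptor that returns escaped proteins, at -1.09), with a median of -0.06. Both lists stand beside 12% higher and 5.03% lower over all genes. Ern2, the stress sensor IRE1-beta of mucus-secreting cells, stood at 175, 229.5, 148 and 5.49, with a log2 ratio of -0.39 (-0.60 to -0.19) against villus-type and 4.99 (4.21 to 5.88) against progenitor-type cells. The thioredoxin-family enzyme Txndc5 stood at 398, 531, 225 and 39.6 and the reductase Dnajc10 at 412, 336, 189 and 54.6. Summed folding RNA per nuclear UMI was thus close in both goblet groups, while Muc2 and Fcgbp RNA differed several-fold.

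Some genes of granule release were lower in the members. Of 30 measured, 3 were higher and 5 lower than in villus-type cells, against 12% and 5.03% of all genes, so the share higher was near that of all genes. Rab27a, the GTPase that tethers granules, stood at 50.7 against 225 in villus-type cells, -2.15 (-2.52 to -1.80). It stood at 3.14 in progenitor-type cells. Of the 3 higher genes, Cadps, a factor of dense-core granule release, had 145 UMIs in all 382 members and 0 in the 338 unmarked ones. Itpr1, a calcium release channel, was 1.87 (1.56 to 2.18), or 1.18 in the unmarked members. Among 36 glycosylation genes 3 were higher and 4 lower (median -0.27), against 12% and 5.03% of all genes, such as the sulfotransferase Chst4 at -1.78 (-2.52 to -1.12) and the sialyltransferase St3gal3 at 1.28 (1.01 to 1.54).

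The regulators of the secretory lineage were present in the members at close to their villus-type level. Spdef stood at 111 CPM in crypt-type goblet cells, 134 in villus-type goblet cells, 73.2 in Paneth-type cells and 1.57 in progenitor-type cells, a log2 ratio of -0.27 (-0.54 to -0.01) against villus-type cells. In cells thinned to 1000 nuclear UMIs, 14.9% of members (11.4 to 18.9%), 16.1% of villus-type and 0.308% of progenitor-type cells had a Spdef UMI. Atoh1 stood at 52.2, 72.2, 62.5 and 8.24 and Creb3l1, a membrane-bound factor of goblet maturation in mouse colon, at 207, 157, 93.1 and 8.63. Klf4, a zinc finger factor that goblet cells of mouse colon require, was an exception at 174 against 464, -1.42 (-1.62 to -1.22). Of 18 measured secretory factors 5 were higher and 1 lower than in villus-type cells, against 12% and 5.03% of all genes. Of the higher ones, Rfx6, Pax6, Neurod1 and Nkx2-2 are enteroendocrine factors: Rfx6 had 302 UMIs in all members, and Rfx6 and Pax6 had 0 in the 338 unmarked ones, while Nkx2-2 stayed at 1.93 there. The fifth was Bhlha15, the secretory factor Mist1, at 1.48 (0.16 to 2.79).

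At the start sites of Spdef, Atoh1, Ern2, Klf4 and Creb3l1, FPM in the members lay within 2-fold of villus-type cells, while the Rfx6 start was higher at 1.02 (0.40 to 1.63), or 0.71 in the unmarked members. The Spdef start peak (chr17:27728510-27729350) held 63, 186, 23 and 4 fragments, or 10.8, 11.7, 13.6 and 0.395 FPM, with log2 ratios of -0.12 (-0.55 to 0.30) against villus-type and 4.77 (3.34 to 6.69) against progenitor-type cells. The Atoh1 start peak (chr6:64728790-64729471) held 28, 25.5, 25.9 and 7.79 FPM, 0.14 (-0.13 to 0.40) against villus-type and 1.85 (1.45 to 2.25) against progenitor-type cells. The Ern2 start (chr7:122185789-122186680) was 0.59 (0.14 to 1.02) against villus-type and 2.20 (1.53 to 2.91) against progenitor-type cells, and Klf4 (chr4:55532241-55533061) -0.28 (-0.44 to -0.12) and 0.38 (0.19 to 0.56). The promoters of Spdef and Atoh1 are shown, from the same source and with the same capitals, because their start peaks were level between the goblet groups and low in progenitor-type cells.
Spdef promoter, chr17:27728952-27729201, minus strand: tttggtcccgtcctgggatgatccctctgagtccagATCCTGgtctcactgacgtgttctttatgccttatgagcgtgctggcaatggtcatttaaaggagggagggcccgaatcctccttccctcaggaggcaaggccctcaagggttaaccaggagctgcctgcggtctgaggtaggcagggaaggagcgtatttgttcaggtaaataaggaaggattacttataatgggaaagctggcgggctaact
Atoh1 promoter, chr6:64728875-64729124, plus strand: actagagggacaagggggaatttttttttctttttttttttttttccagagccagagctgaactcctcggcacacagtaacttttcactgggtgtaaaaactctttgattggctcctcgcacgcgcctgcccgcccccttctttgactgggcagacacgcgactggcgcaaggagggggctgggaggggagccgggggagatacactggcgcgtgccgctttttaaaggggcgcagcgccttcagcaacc
The Spdef window held 1 ETS-type match and no E-box, and the Atoh1 window neither.

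**Figure D3:**
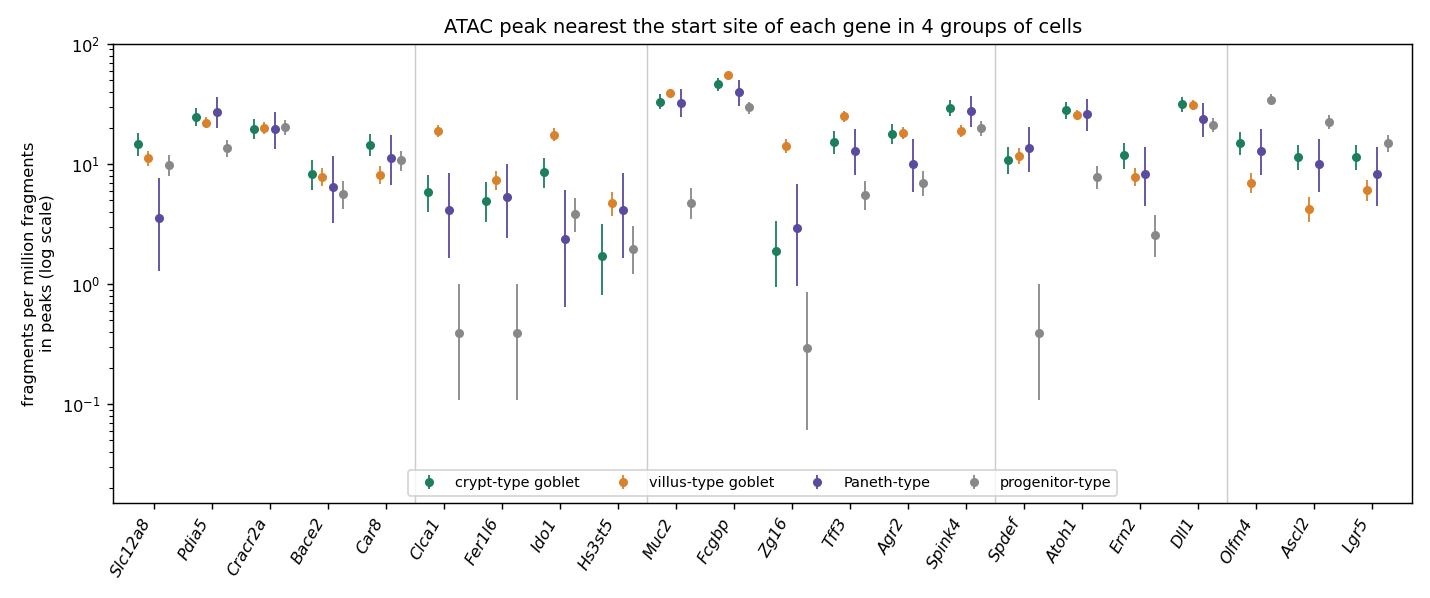
FPM (y axis, log scale, exact 95% counting intervals) at the start-site peaks of goblet, regulator and stem genes in the 4 groups. Spdef and Atoh1 lie at like levels in both goblet groups, Zg16 and Clca1 are lower in crypt-type goblet cells, and Olfm4, Ascl2 and Lgr5 are highest in progenitor-type cells.

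Against villus-type cells, start-site chromatin of the panel genes followed the villus side of the rule more than the crypt side. Of 7 crypt panel peaks 0 were counted as higher, with ratios from -0.18 (Bace2) to 0.83 (Car8). Of 6 villus panel peaks 3 were counted as lower. Rhobtb1 gave 146 of the 281 villus panel fragments in members and was level between the goblet groups at -0.06 (-0.34 to 0.22). Summed over 7 start-site peaks of 5 crypt panel genes (Kcnma1 had none within 1000 bases), members held 99.9 FPM, villus-type cells 85.1, Paneth-type cells 86.1 and progenitor-type cells 69.6, a log2 ratio of 0.23 (0.09 to 0.37) against villus-type and 0.52 (0.36 to 0.68) against progenitor-type cells. Summed over 6 start-site peaks of villus panel genes (Sytl2 had none), they held 48.0, 78.0, 50.7 and 33.7, a log2 ratio of -0.70 (-0.89 to -0.51) against villus-type and 0.51 (0.28 to 0.74) against progenitor-type cells. The Clca1 start (chr3:145032524-145033451) held 34, 299, 7 and 4 fragments, -1.69 (-2.25 to -1.18) against villus-type cells, and the 4 fragments in progenitor-type cells gave 3.88 (2.39 to 5.84). At Fer1l6 (chr15:58509592-58510437) the counts were 29, 117, 9 and 4, with -0.57 (-1.21 to 0.03) against villus-type and 3.65 (2.14 to 5.62) against progenitor-type cells. Both comparisons with progenitor-type cells were under the minimum of 50 fragments. The Ido1 start (chr8:24595071-24595921) was -1.04 (-1.51 to -0.60) and 1.15 (0.52 to 1.79) in the same comparisons, and Slc12a8 (chr16:33517066-33517867) 0.39 (0.01 to 0.77) and 0.59 (0.16 to 1.02). At Pkhd1 and Hs3st5 the start-site level was 2.05 and 1.71 FPM in members and 3.16 and 1.97 in progenitor-type cells. These log2 ratios, -0.62 (-1.71 to 0.37) and -0.21 (-1.46 to 0.96), were also under the minimum of 50 fragments. Their intervals include no change, so the order of the 2 groups at these genes is not settled.

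Far from start sites, more peaks were counted as lower than as higher in the members relative to villus-type cells. The minimum of 50 fragments was summed over both groups, which held 5848495 fragments in members and 15910652 in villus-type cells. A peak open only in villus-type cells thus passed more readily than one open only in members, so the minimum sets part of this split. Of 17247 peaks within 1000 bases of a start, 3.71% were higher and 2.11% lower, and of 61087 farther ones 5.77% were higher and 10.6% lower. The lowest was chr7:79336322-79337195 inside Abhd2, with 1 fragment in members and 184 in villus-type cells, a log2 ratio of -6.08 (-11.4 to -3.58). A peak inside Rgs17 (chr10:5901583-5902470) had 2 and 192 fragments, and a peak 114789 bases from the start of the villus panel gene Rhobtb1 (chr10:69092826-69093763) had 3 and 208. The highest was chr1:182115691-182116396, outside genes, with 93 and 37 fragments and 2.77 (2.21 to 3.36), and a peak inside Ret, a receptor tyrosine kinase (chr6:118192203-118192923), had 85 and 43. Without the marked members 3876 peaks (5.04%) were higher and 6653 (8.65%) lower, of which 3498 and 6157 were also called with all members. Across 500 panel and list genes the log2 ratios of RNA and of summed gene-body peaks against villus-type cells had a rank correlation of 0.50, across genes of the same cells and so no independent replicates.

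RNA of the crypt base was higher in the members than in villus-type goblet cells. Of 22 measured Wnt target and stem genes, 15 were higher and none lower (median 1.40), against 12% and 5.03% of all genes. Lgr5, the receptor that marks stem cells, stood at 228 CPM in crypt-type goblet cells, 41.8 in villus-type goblet cells, 337 in Paneth-type cells and 538 in progenitor-type cells. It was 2.45 (2.18 to 2.72) relative to villus-type and -1.24 (-1.42 to -1.06) relative to progenitor-type cells, and these last were chosen by it. The RNA-binding protein gene Msi1 was 2.96 (2.19 to 3.78) and the guidance receptor Ephb3 2.42 (1.48 to 3.40) relative to villus-type cells. Start-site chromatin was higher than in villus-type cells at some of these genes. Ascl2 (chr7:142968704-142969612), a Wnt-driven stem cell factor, held 67, 67, 17 and 229 fragments, 1.44 (0.93 to 1.95), and Olfm4 (chr14:79999769-80000689), a stem cell glycoprotein gene, 87, 111, 22 and 349, 1.09 (0.67 to 1.51). Peaks at Smoc2 (0.75 (0.39 to 1.10)) and Axin2 (0.45 (0.24 to 0.65)) were not counted as higher, nor were any at Rgmb and Cdk6, where ratios ran from -0.46 to 0.67. Ascl2 and Olfm4 were below progenitor-type cells, at -0.98 (-1.39 to -0.58) and -1.21 (-1.57 to -0.87).

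A larger share of members than of villus-type cells carried RNA of dividing cells. Against villus-type cells 26 of 33 S phase genes (median 1.23) and 19 of 32 genes of G2 and mitosis (median 1.09) were higher and none was lower. Over all genes 12% were higher and 5.03% lower. Mki67, the proliferation antigen gene, stood at 267 CPM in crypt-type goblet cells, 103 in villus-type goblet cells, 73.2 in Paneth-type cells and 353 in progenitor-type cells. In cells thinned to 1000 nuclear UMIs, 28.6% of members (24.1 to 33.5%) had 3 or more UMIs of G2 and mitosis genes, against 9.52% of villus-type, 6.70% of Paneth-type and 46.0% of progenitor-type cells. The unthinned share in members was 44.0%. The S phase gene Pola1, a subunit of DNA polymerase alpha, was 1.78 (1.58 to 1.98) and the mitotic kinase gene Bub1 1.52 (1.07 to 1.97) relative to villus-type cells. Leaving out the 106 members with at least 10 UMIs of G2 and mitosis genes, a choice that uses the same genes and leaves the villus-type group whole, gave a median of -1.38 for that list and -0.53 for Mki67.

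Of the Notch ligands, Dll1 was highest in the members. It stood at 113 CPM in crypt-type goblet cells, 62 in villus-type goblet cells, 26.6 in Paneth-type cells and 11.8 in progenitor-type cells. Its log2 ratio was 0.87 (0.57 to 1.16) against villus-type, 2.09 (1.41 to 2.84) against Paneth-type and 3.26 (2.69 to 3.88) against progenitor-type cells. Dll4, the other intestinal Delta ligand, stood at 26.1, 22.6, 22.6 and 4.32, with 0.21 (-0.39 to 0.78) against villus-type cells. The receptors ran the other way against progenitor-type cells, with Notch1 at -1.42 and Notch2 at -1.55, both with intervals below 0. The start peak of Dll1 (chr17:15375510-15376426) was 0.03 (-0.22 to 0.27) against villus-type cells. Of 17 measured Notch genes 5 were higher and none lower than in villus-type cells, against 12% and 5.03% of all genes, with Notch1 at 1.53 (0.81 to 2.24) and the glycosyltransferase Lfng, which modifies Notch, at 1.27 (0.19 to 2.32).

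Of 22 measured channels and transporters, 6 were higher and 2 lower in the members than in villus-type cells (median 0.02), against 12% and 5.03% of all genes. The higher ones include those of crypt fluid secretion. Slc12a2, the basolateral chloride loader NKCC1, stood at 1394 CPM in crypt-type goblet cells, 485 in villus-type goblet cells, 726 in Paneth-type cells and 2512 in progenitor-type cells. Cftr, the apical chloride and bicarbonate channel, stood at 737, 329.5, 339 and 1765, and the potassium channel gene Kcnq1 at 309, 119, 177 and 801. All 3 were intermediate between villus-type and progenitor-type cells. Ano7, of the anoctamin family, was among the 2 lower, at 257, 619, 99.8 and 2.35, and stood far above progenitor-type cells at 6.77 (5.63 to 8.23).

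Some landmark genes of the villus were lower in the members. Of 14 villus tip landmarks 1 was higher and 6 lower than in villus-type cells, against 12% and 5.03% of all genes, and of 11 lower villus landmarks 4 were lower. The EGF receptor gene Egfr was -1.74 (-1.94 to -1.54), the keratin gene Krt20 -1.58 (-1.78 to -1.39), the cell cycle inhibitor Cdkn1a -1.39 (-1.82 to -0.98) and Lypd8, which coats flagellated bacteria, -1.70 (-1.83 to -1.58). The 1 higher landmark, Pkib, had 0 UMIs in the unmarked members. Enterocyte marker RNA summed to 5965, 9723, 4141 and 4519.9 CPM in members, villus-type, Paneth-type and progenitor-type cells, and its part in these differences was not tested. The 25 measured genes of the integrated stress response did not stand lower as a list, with a median of 0.14. Of the 25, beside 12% higher and 5.03% lower over all genes, 3 were lower, the factor Ddit3 at -1.56 (-2.51 to -0.73), the cystine transporter Slc7a11 at -1.49 (-2.67 to -0.49) and Chac1 with 0 UMIs against 20 (at least 2.19-fold lower), and 1 was higher, the serine synthesis gene Psat1 at 1.11 (0.12 to 2.07).

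**Figure D4:**
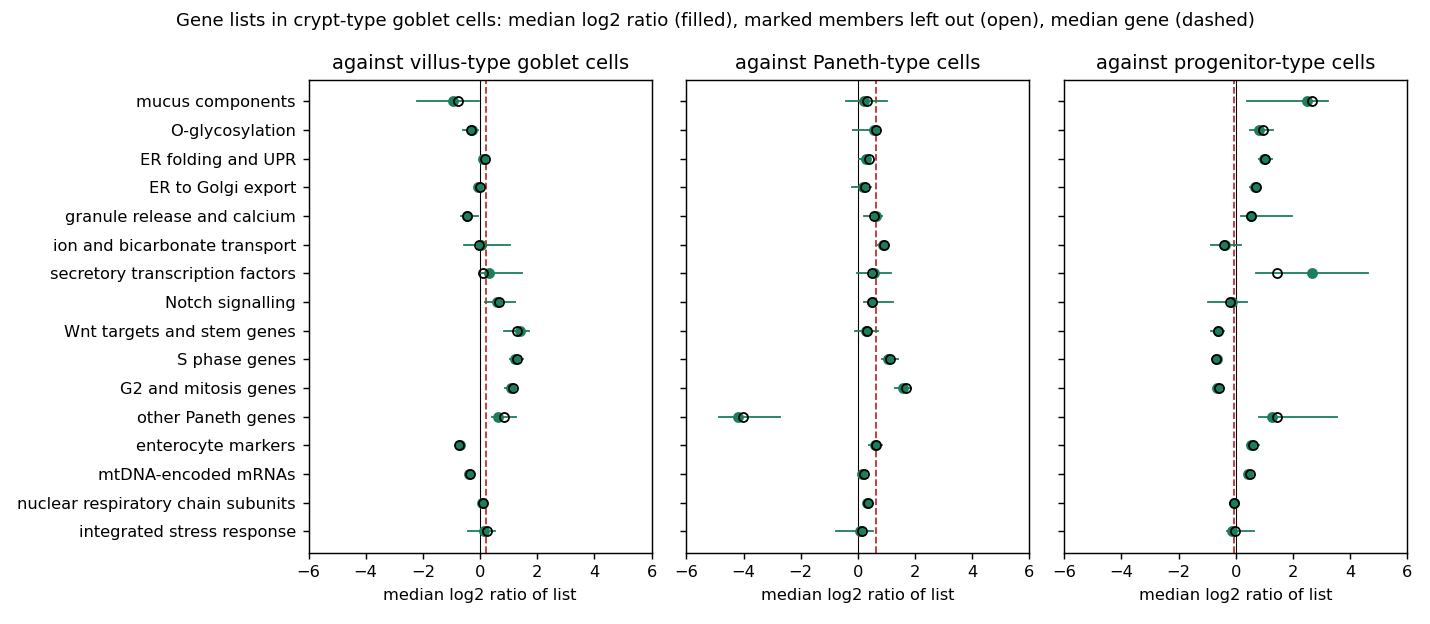
Median log2 ratio of each gene list (x axis) in crypt-type goblet cells against villus-type goblet, Paneth-type and progenitor-type cells. The line is an order-statistic interval of that median (no test) and does not show the spread of the genes. Filled points use all 382 members, open points leave out those with enteroendocrine or tuft marks, the dashed line is the median gene, and Wnt targets, S phase and mitosis genes lie to its right against villus-type cells.

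Outside the lists, the genes that stood highest against villus-type cells in all 382 members were enteroendocrine in kind, such as the hormone gene Sst (325 and 24 UMIs, 5.37 (4.77 to 6.03)) and the neuronal factor Isl1 (4.49 (3.65 to 5.45)). Sst fell to 0.05 and Isl1 to 0 UMIs in the 338 unmarked members. With those members alone, 1201 genes were higher (10.5%) and 594 lower (5.17%), of which 1072 and 501 were also called with all members. By the same naming rule, the highest were then Samd5 (104 and 45 UMIs, 3.04 with 2.52 to 3.58), the secreted phospholipase Pla2g2a (102 and 45, 3.01 with 2.49 to 3.55) and the sortilin-family receptor Sorcs2 (85 and 40, 2.92 with 2.36 to 3.50). The chromatin regulator Hmga2 (167 and 133, 2.16 with 1.82 to 2.50) and the Wnt receptor Ror2 (62 and 53, 2.05 with 1.50 to 2.61) were named by the same rule. The lowest in all members were the lysophosphatidic acid receptor Lpar3 (0 and 185 UMIs, at least 20.2-fold lower) and the long RNA Wincr1 (0 and 278, at least 30.4-fold lower), followed by Frmd3 (2 and 735, -6.91 (-9.96 to -5.05)), the prostaglandin D2 receptor Ptgdr (1 and 149, -5.61 (-10.92 to -3.11)) and the calcium-binding protein S100a6 (48 and 1901, -3.70 (-4.14 to -3.29)).

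The split of calls against villus-type cells rests on the scale. Per nuclear UMI 1410 genes were higher and 589 lower, and with ratios centred on the median gene 913 and 903.

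Against Paneth-type cells, the members held far less of the granule RNA that defines that group. They carried more Fcgbp and mitotic RNA and more RNA of 1 Notch ligand, Dll1. The rule sets the direction for the granule panel, at 2400 CPM in members and 137408 in Paneth-type cells. Over 9671 genes 21.8% were higher and 2.07% lower, with the median gene at 0.65, and the split of 2107 higher and 200 lower became 359 and 602 when centred on that median and 794 and 341 with UMIs of all kinds as library size. All 14 measured Paneth genes outside the rule were lower (median -4.19), among them the defensins Defa24 (2849 and 79582 CPM) and Defa5 (45.6 and 2338), near-identical genes between which reads may be split. The members still held Mmp7, which processes defensins, at 221 against 77.5 in villus-type and 21.2 in progenitor-type cells. The Wnt ligand gene Wnt3, known from Paneth cells, had 38 UMIs in members, 2.95 (2.05 to 3.92) against villus-type cells. Genes of G2 and mitosis had a median of 1.59 with 28 of 32 higher, and stayed above the median gene. Per nuclear UMI, Muc2 was nearly level at -0.13 (-0.25 to -0.01), while Fcgbp was 1.10 (1.00 to 1.20). Beside the median gene at 0.65, Muc2 lay below and Fcgbp above by less than 2-fold. The secretory regulator Bhlha15 was -2.46 (-3.60 to -1.44), on 11 and 33 UMIs, and the folding enzyme P4hb -1.05 (-1.26 to -0.83). The folding list as a whole had a median of 0.27, which turned to -0.38 when centred and -0.09 with UMIs of all kinds. With the 338 unmarked members 20.9% of genes were higher and 2.08% lower. Of 36476 peaks, 2.72% were higher and 1.53% lower, and 2.7% and 1.44% with the unmarked members. The highest lay 6708 bases from the start of Ccdc141 (chr2:77177284-77178160), with 108 fragments in members and 6 in Paneth-type cells, and Ccdc141 RNA had 113 UMIs in the unmarked members and 12 in Paneth-type cells.

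Against progenitor-type cells, the members held more secretory RNA and less RNA of some stem genes. Progenitor-type cells were chosen for stem genes and against the crypt panel, so both directions are partly set by the rules. Over 11307 genes 6.43% were higher and 3.39% lower, with the median gene at -0.07. Mucus genes were higher in 9 of 14 (median 2.50), folding genes in 16 of 33 (median 1.00), export genes in 9 of 46 (median 0.67) and glycosylation genes in 12 of 33 (median 0.81), and none of these lists had a lower gene. The secretory factors were higher in 11 of 17, with a median of 2.66 that was 1.45 in the unmarked members. Spdef was 6.14 (4.76 to 8.04), Atoh1 2.66 (1.94 to 3.44) and Gfi1, a repressor downstream of Atoh1, 4.97 (3.01 to 8.07). The export coat gene Sec24d was 2.86 (2.50 to 3.24), the mucin glycosyltransferases Galnt5 5.31 (4.15 to 6.78) and Gcnt3 3.64 (2.79 to 4.61), and the actin-severing protein Scin 3.57 (3.06 to 4.11). Wnt and stem genes had a median of -0.63 with 4 of 20 lower, and S phase genes a median of -0.67 with 1 of 33 lower. Mki67 was -0.40 (-0.58 to -0.22). With the unmarked members 5.32% of genes were higher and 3.89% lower. Outside the lists the highest genes in the unmarked members were Bcas1 (145 and 1 UMIs), the vesicle adaptor Sybu (109 and 1), Rap1gap (104 and 2) and the phospholipase Plcb1 (1284 and 29). Of 64116 peaks 3.83% were higher and 4.65% lower, and 3.82% and 5.05% with the unmarked members. A peak near the start of the digestive-tract calpain Capn9 (chr8:124576530-124577431) held 97 and 5 fragments, 5.07 (3.80 to 6.73).

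Among the members, goblet RNA increased with the number of villus panel UMIs while stem RNA decreased. For the 338 unmarked members with 0, 1, 2, 3, 4 and 5 villus panel UMIs (74, 64, 59, 53, 51 and 37 cells), Fcgbp stood at 1366, 1937, 3278, 4623, 4552 and 6246 CPM. The 101 villus-type cells with 6 to 8 such UMIs and at least 5 of the crypt panel had 6633. Muc2 stood at 473, 1010.2, 1237, 1466, 1929 and 2023, and then 2299. Both genes were thus several-fold higher at 5 UMIs than at 0. Lgr5 ran the other way at 477, 289, 148, 91.2, 114 and 78.3, and then 47.3, and Olfm4 stood at 1614, 1045, 728, 785, 658 and 477, and then 488. Dll1 barely moved, at 129.7, 127, 122, 134, 124 and 107, while Spdef was highest in the middle at 68.7, 105, 193, 170.3, 114 and 142. The villus panel is part of the rule and its sum grows with a cell's depth, whose median in these 6 bins was 3182, 2408, 2873, 2277, 2992 and 3634 nuclear UMIs, so this is a description.

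**Figure D5:**
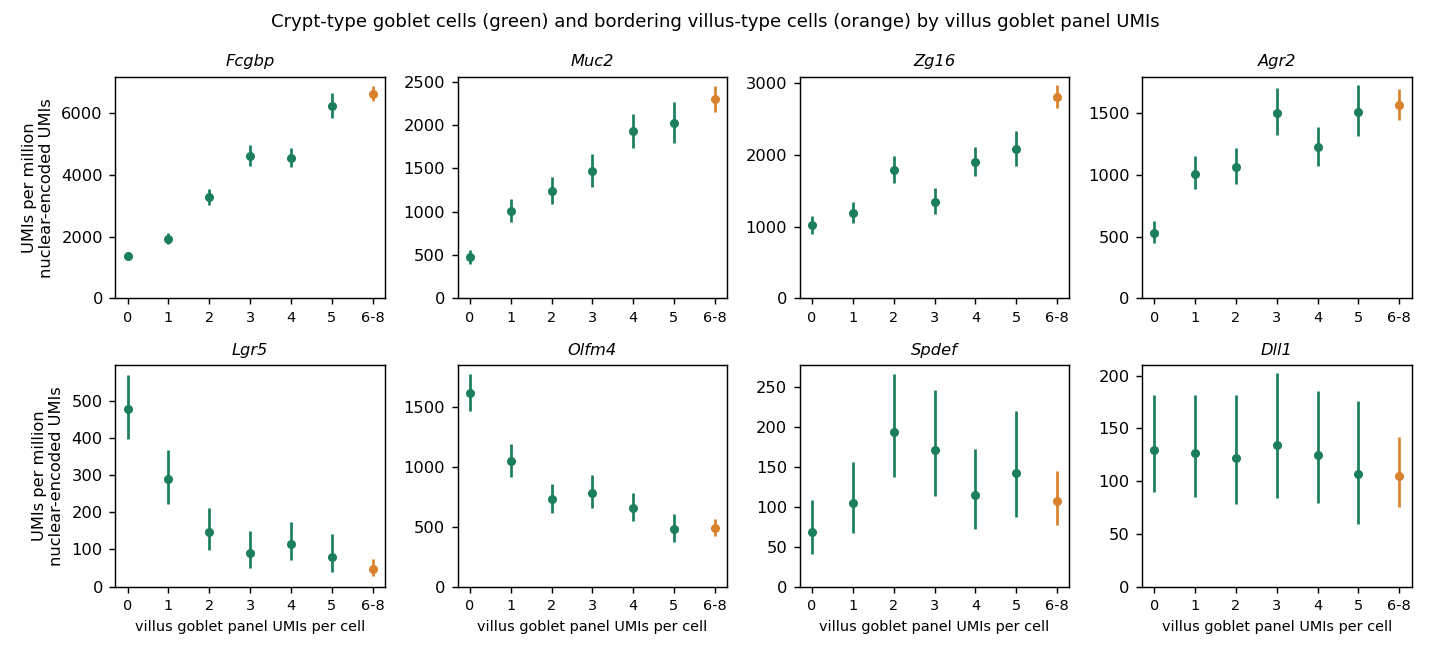
Level of 8 genes (y axis, CPM, linear scale from 0, exact 95% counting intervals) in unmarked crypt-type goblet cells by number of villus panel UMIs (x axis, 0 to 5, green), with villus-type cells of 6 to 8 as the last point (orange). Fcgbp goes from 1366 at 0 to 6246 at 5 and Lgr5 from 477 to 78.3.

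The members also differed by division and by lineage marks. The 241 members with no enteroendocrine or tuft mark and under 10 UMIs of G2 and mitosis genes had 4295 Fcgbp, 1723 Muc2, 1403 Agr2 and 170.4 Spdef CPM, whereas the 97 unmarked ones with at least 10 had 2156, 688, 667 and 72. The members with G2 and mitosis RNA thus held less of each of these 4 RNAs, but they were also deeper, with a median of 4799 nuclear UMIs against 2178, and the part of depth was not tested. They held more Cftr, at 1104 against 496, and more Lgr5, at 292 against 173. The 38 enteroendocrine-marked members had 494 Fcgbp and 271 Muc2 CPM, with 0 Atoh1 UMIs, 2045 Rfx6 CPM and 11099.5 Gip. Their Dll1 was 33.9 against 148 in the 241.

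RNA encoded by mtDNA, which holds the mutated tRNA gene, was mostly rRNA in the members. Mitochondrial rRNA made up 45.9% of all UMIs in members, 42.9% in villus-type, 31.7% in Paneth-type and 47.6% in progenitor-type cells. The 13 mtDNA-encoded mRNAs made up 6.92% of all UMIs in members (6.89 to 6.94%), 9.41% in villus-type, 8.01% in Paneth-type and 5.01% in progenitor-type cells. Per nuclear UMI their median log2 ratio was -0.40 against villus-type and 0.44 against progenitor-type cells, and none of the 13 passed the 2-fold line in either. Against Paneth-type cells the median of 0.14 turned to -0.51 when centred and -0.22 with UMIs of all kinds. The 73 measured nuclear genes of the respiratory chain had none higher or lower against villus-type cells, with a median of 0.07 that turned to -0.15 when centred. Over all genes 12% were higher and 5.03% lower. Lars2, the mitochondrial leucyl-tRNA synthetase, stood at 6751 in members and 18244 in Paneth-type cells, -1.43 (-1.47 to -1.40), and its transcript holds a stretch that resembles mitochondrial rRNA, so its counts are uncertain.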

How the data were processed

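RNA and ATAC were measured in the same cells of 1 animal (2 libraries). The deposited matrix holds counts made by the authors with Cell Ranger ARC 2.0.2 on mm10, per the submitters' processing notes: UMI counts of 55401 genes and counts of 146191 peaks, 71697164 and 197564789 in all. Of the peak values 87.6% were even, so fragments were taken as the counts over 2, with odd ones rounded up. All 12363 barcodes had both readouts. Cells, groups and thresholds are those given above. Counts were summed per group and ratios given exact conditional 95% intervals (python 3.11.15, scipy 1.17.1). The steps were tested on simulated data. Scrublet (scanpy 1.11.5) scored doublets, which were kept, and an alternative left out the highest 8%. Shares of cells were also taken after thinning to 1000 nuclear UMIs. Of 619 list genes 614 were found. Named genes were the rule's genes, up to 4 called members per list with the largest ratios, mucus components, Atoh1, Spdef, Dll1, Dll4, Mki67 and Lgr5. Outside the lists the 8 highest and 8 lowest ratios with at least 100 UMIs were named, and the same for peaks with 5. Other genes in the text, such as Klf4, Creb3l1, Txndc5 and those with start-site peaks, were chosen after their values were seen. The members and lists were chosen with earlier results of these data known. Start sites come from the matrix, with RefSeq starts added for each gene that had an entry, among them Muc2, Kcnma1, Rhobtb1 and Rgmb. A gene that the naming rule picks is not reported here.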

Additional observations from a re-analysis of the deposited data

How the results depend on the processing

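Of the counts of genes, peaks, list calls and members and the shares, 90 values stayed close to those given and 47 moved. List medians and the ratios of a fixed set of chosen genes were counted once per comparison and setting. Of the list medians 699 stayed close, 84 moved and 19 changed sign. Of the gene ratios 1086 kept their call or lack of one, 27 gained a call, 16 lost one and 2 changed sign. A crypt panel of at least 8 UMIs left 240 members and a villus panel under 3 left 238. Unthinned, 66.0% of members had a Kcnma1 UMI, 86.4% an Fcgbp UMI and 44.0% at least 3 UMIs of G2 and mitosis genes.

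With UMIs of all kinds as library size, 794 genes were higher and 341 lower than in Paneth-type cells, and the medians of folding, mtDNA-encoded and respiratory chain genes turned to -0.086, -0.22 and -0.026. Centred on the median gene, 913 genes were higher and 903 lower than in villus-type cells, with folding at -0.11 and respiratory chain genes at -0.15. Centred against Paneth-type cells, 359 were higher and 602 lower, with folding at -0.38, granule release at -0.017, Notch at -0.14, enterocyte markers at -0.044, mtDNA-encoded genes at -0.51 and respiratory chain genes at -0.32. Against progenitor-type cells the respiratory chain list turned to 0.0066 when centred. With no minimum of UMIs 1117 genes were higher than in progenitor-type cells. A minimum of 100 UMIs, which tests fewer genes, left 588 higher than in villus-type cells, 1051 higher and 73 lower than in Paneth-type cells, and 309 higher and 143 lower than in progenitor-type cells. With each cell weighted equally 927 genes were lower than in progenitor-type cells. Thinned, 115 genes were lower than in Paneth-type cells and the secretory factors turned to -0.031 against villus-type cells.

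The settings that leave out cells by their markers were chosen after seeing the data. Without enteroendocrine- or tuft-marked members, the enteroendocrine and tuft lists turned to -0.55 and -2.50 against villus-type cells and the tuft list to -2.70 against progenitor-type cells. The same lists chose the members left out and the other groups stayed whole, so lower values were set in advance. Without members of 10 or more G2 and mitosis UMIs, 912 genes were higher than in villus-type and 951 lower than in progenitor-type cells. That list then turned to -1.38 and Mki67 to -0.53 against villus-type cells, and to -1.18 and -0.041 against Paneth-type cells. Without cells above 1% enterocyte markers, mtDNA-encoded genes turned to -0.068 against Paneth-type cells.

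Peaks counted as deposited, with most fragments counted at both ends, gave 8080 higher and 10775 lower than in villus-type, 3721 and 2033 than in Paneth-type and 5571 and 5590 than in progenitor-type cells. With at least 100 fragments these were 1592 and 3616, 177 and 85, and 850 and 1282. At 3-fold they were 596 and 2421, 205 and 76, and 1026 and 373. The mtDNA-encoded mRNA share without the highest 8% of doublet scores was 6.10% in members, 8.42% in villus-type, 7.66% in Paneth-type and 3.87% in progenitor-type cells. As a median over cells it was 3.81, 5.01, 3.96 and 2.85%. Except where a value above shows it, the cause was not tested.

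No paired analysis was possible because both libraries come from 1 animal. With 1 animal, no difference has a replicate check, and rare genes such as Atoh1 rest on few UMIs.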
